A study of Rattus norvegicus with 24 samples.

Results

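Col1a1, Col1a2, Col3a1, Col5a1, Col5a2, Col12a1, Postn, Fn1 and Lox encode fibrillar and fibril-associated collagens, periostin, fibronectin and lysyl oxidase, the building blocks of fibrotic scar tissue, and their mRNA was followed in rat spinal cord from the day after a clip injury to 8 weeks. The 9 genes were taken by their symbols from the 14218 genes that the array platform names through a probe set (a group of short probes that report a transcript) with a single gene symbol. Where several probe sets carried the symbol, the one with the highest mean over the 24 arrays stood for the gene. The 9 genes had 16 such probe sets in all, with 1 to 3 for each gene. All values are log2 expression as the authors normalized it, so a difference of 1 is a doubling, and levels of different genes are not set against each other because their probes differ.

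The RNA came from the spinal cord of female Wistar rats, and the array was an Affymetrix rat genome array. Injured rats had a laminectomy and a 35 g aneurysm clip closed on the cord at thoracic level T7 for 1 min, and the tissue at the centre of the injury was taken after 1, 3, 7, 14 or 56 days from 4 rats each. The 4 control rats were labelled sham, laminectomized animals by the study's account, and their day of sampling was not given in the sources used here. Each day was thus measured in other rats, all injured days were compared with the same 4 sham arrays, and no ages were given.

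The cord label was checked against tissue markers. Mbp, a myelin protein, had a mean of 15.35 in sham and Gfap, the astrocyte filament protein, one of 14.74. The summed level of 11 measured cord markers was 17.46 to 17.60 on the sham arrays, 16 to 16.54 on day 1, 16.96 to 17.09 on day 3, 16.30 to 17.22 on day 7, 16.49 to 17.07 on day 14 and 16.85 to 17.02 on day 56. Lower than sham were 11 of the 11 markers on day 1, 4 on day 3, 10 on day 7, 9 on day 14 and 8 on day 56. Over all genes 20.4%, 16.7%, 30%, 16.3% and 15.9% were lower on these days. The neuronal genes Nefl (-5.06), Slc17a6 (-3.95) and Snap25 (-3.88) led on day 1, while Gad1 differed most on day 14 (-3.18). The day 3 arrays lay between sham and day 1 in cord markers, and the assignment of arrays to days rests on the labels alone. In whole tissue, fewer cells of a type and less RNA per cell cannot be told apart.

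Fibrotic scar forms where fibroblast-like cells from vessel walls and meninges enter injured nervous tissue and lay down matrix. Collagen I and collagen III chains assemble into fibrils, collagen V sits inside these fibrils and controls their width, and collagen XII lies on their surface. Fibronectin is the provisional network on which fibrils are first laid, periostin bridges collagen, fibronectin and integrins, and lysyl oxidase oxidises lysines so that collagen and elastin become cross-linked.

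On most days after injury the scar matrix genes stood far above sham, and on day 3 the chains of collagens I and III were not. On day 1, 8 of the 9 genes rose (limma, adjusted p under 0.05), against 28.9% of all genes tested, and 0 fell, against 20.4%. All 9 had 4 injured values above the 4 sham values on day 1, against 27.6% of all genes. On day 3 only 3 of 9 were higher, against 23.7% of all genes, and 2 of 9 were lower, against 16.7%. On day 7 all 9 were higher, against 23.5% of all genes, and 0 lower, against 30%. On day 14 all 9 were higher again, against 15.8%, and 0 lower, against 16.3%. On both days the 9 genes had no overlap with sham, against 20.2% of all genes that lay wholly above it on day 7 and 19.7% on day 14. On day 56, 5 of 9 were higher, against 16.1% of all genes, and 0 lower, against 15.9%. The 4 values of 5 genes lay wholly above sham on day 56, against 18.6% of all genes, and 0 genes lay wholly below it, against 17.9%. On day 3, 4 genes lay wholly above sham, against 23.1% of all genes, and 0 wholly below it, against 17.3%. The median log2 difference of the 9 genes from sham was 2.70, 1.1, 2.90, 2.6 and 1.53 on the 5 days in turn, while the median over all genes lay between -0.05 and 0.03.

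**Figure D1:**
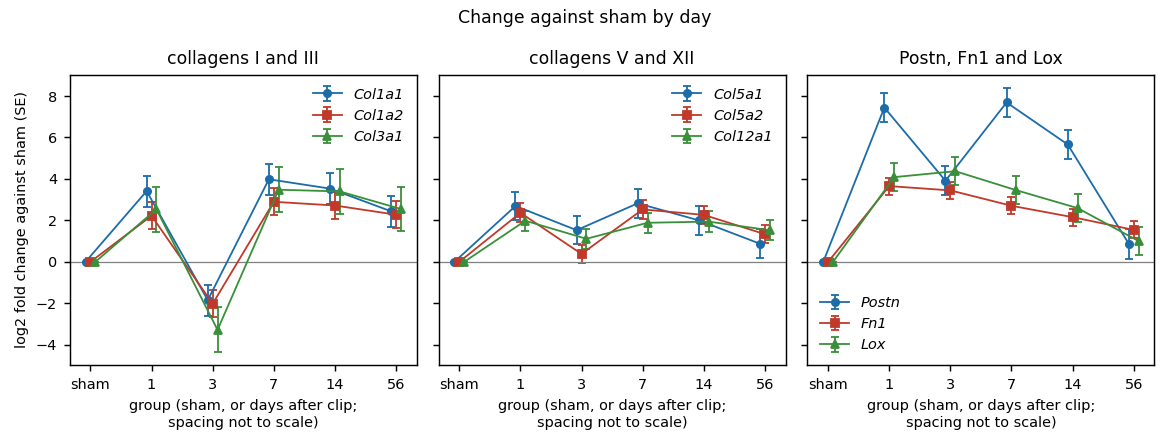
Log2 difference of each gene from sham (vertical axis, with the standard error of the fit as bars, 4 injured and 4 sham rats) by group (horizontal axis, spacing not to scale). Col1a1, Col1a2 and Col3a1 lie below 0 on day 3 and above 2 on days 1, 7, 14 and 56, whereas Fn1 and Lox are highest on days 1 and 3 and Postn is back near 0 on day 56.

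The chains of collagens I and III were abundant in sham and rose on day 7 to their highest levels. Col1a1, the gene of the major collagen I chain, read 7.74, 9.33, 8.89 and 9.32 on the sham arrays and 13.52, 14.20, 11.81 and 11.69 on day 7. No value of the groups overlapped, and the difference was 3.98 (SE 0.75, adjusted p = 0.000297), a 15.8-fold level. The second chain, Col1a2, rose by 2.90 (SE 0.65, adjusted p = 0.00152). Col3a1, the chain of the more distensible collagen III found early in healing tissue, rose by 3.48 (SE 1.08, adjusted p = 0.0147).

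The same 3 chains were already high on day 1. Col1a1 read 12.59, 12.65, 10.71 and 12.99, a rise of 3.42 (SE 0.75, adjusted p = 0.000735), and replicate 3 was the lowest rat. Col1a2 rose by 2.22 (SE 0.65, adjusted p = 0.00794). Col3a1 read 12.70, 12.96, 10.55 and 12.99, all above sham, but its difference of 2.54 (SE 1.08) did not pass the test (adjusted p = 0.0633). Without replicate 3 of day 1, Col3a1 differed by 3.13 and passed (adjusted p = 0.0314).

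On day 3 these chains were at or below sham, and the 4 rats varied widely. Col1a1 read 8.80, 4.99, 7.35 and 6.76, so that replicate 1 overlapped the sham range and the other rats lay below it. Its difference of -1.84 (SE 0.75) did not pass the test (adjusted p = 0.0598). Col1a2 read 9.39, 6.50, 7.28 and 7.60, lower than sham by a called difference of -2.02 (SE 0.65, adjusted p = 0.0197) with overlapping values. Col3a1 read 10.05, 3.48, 4.05 and 8.33, a span of 6.57 between rats and a called difference of -3.28 (SE 1.08, adjusted p = 0.0220), again with overlap. These 2 calls rested on single arrays. Without day 3 replicate 2 the differences were -1.62 for Col1a2 (adjusted p = 0.0805) and -2.28 for Col3a1 (adjusted p = 0.103), and without day 3 replicate 3 they were -1.88 (adjusted p = 0.0547) and -2.47 (adjusted p = 0.0971). Col1a2 was also lost without sham replicate 2 (-1.85, adjusted p = 0.0543). When only the day 3 and sham arrays were fitted, neither passed (adjusted p = 0.0522 and 0.145). Both chains of collagen I had a second probe set, on which the day 3 difference was -0.84 for Col1a1 (adjusted p = 0.318) and -1.71 for Col1a2 (adjusted p = 0.0335). On its first probe set Col1a1 passed without day 3 replicate 1 (-2.45, adjusted p = 0.0139) or without sham replicate 1 (-2.20, adjusted p = 0.0408), with quantile normalization (-1.89, adjusted p = 0.0499), with a trend and robust variance (adjusted p = 0.0489) and without dim probe sets (adjusted p = 0.0347).

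For 5 of the 9 genes the step from day 1 to day 3 and the step from day 3 to day 7 passed the test. Between days 1 and 3, 5 of the 9 genes fell, against 18.3% of all genes, and 0 rose, against 17.1%. Col1a1 fell by 5.26 (SE 0.75, adjusted p = 3.1e-05), Col3a1 by 5.82 (SE 1.08, adjusted p = 0.000398) and Col1a2 by 4.25 (SE 0.65, adjusted p = 6.8e-05). Between days 3 and 7 the same 3 genes, with Col5a2 and Postn, rose, against 12.8% of all genes. Col3a1 showed the largest of these steps, 6.76 (SE 1.08, adjusted p = 8.9e-05), beside 5.83 for Col1a1 and 4.92 for Col1a2. Each of these differences had non-overlapping values, a trait not counted over all genes for these steps. The rats of day 3 spanned as much in Col3a1 as its steps, and none of the fits without a single array ended these calls. The second probe set of Col5a2, however, passed from day 3 to day 7 (1.82, adjusted p = 0.00968) but not from day 1 to day 3 (-1.05, adjusted p = 0.105).

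From day 7 the chains stayed high. Col1a1 stood 3.54 above sham on day 14 (adjusted p = 0.00115) and 2.44 above it on day 56 (adjusted p = 0.0173), and Col1a2 stood 2.72 and 2.28 above it (adjusted p = 0.00324 and 0.0114). Col3a1 was 3.4 above sham on day 14 (adjusted p = 0.0215), while its 2.55 on day 56, with 12.05, 12.79, 11.29 and 13.11 against at most 10.16 in sham, did not pass (adjusted p = 0.0865). On the log2 scale 61.2% of the day 7 difference of Col1a1, 78.5% of that of Col1a2 and 73.3% of that of Col3a1 was left on day 56. The call of Col3a1 was lost on day 14 without sham replicate 1 (3.07, adjusted p = 0.0638) or without day 14 replicate 3 (2.95, adjusted p = 0.0792). The call of Col1a1 on day 56 was lost without sham replicate 1 (2.08, adjusted p = 0.0642) or day 56 replicate 4 (2.19, adjusted p = 0.0579).

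**Figure D2:**
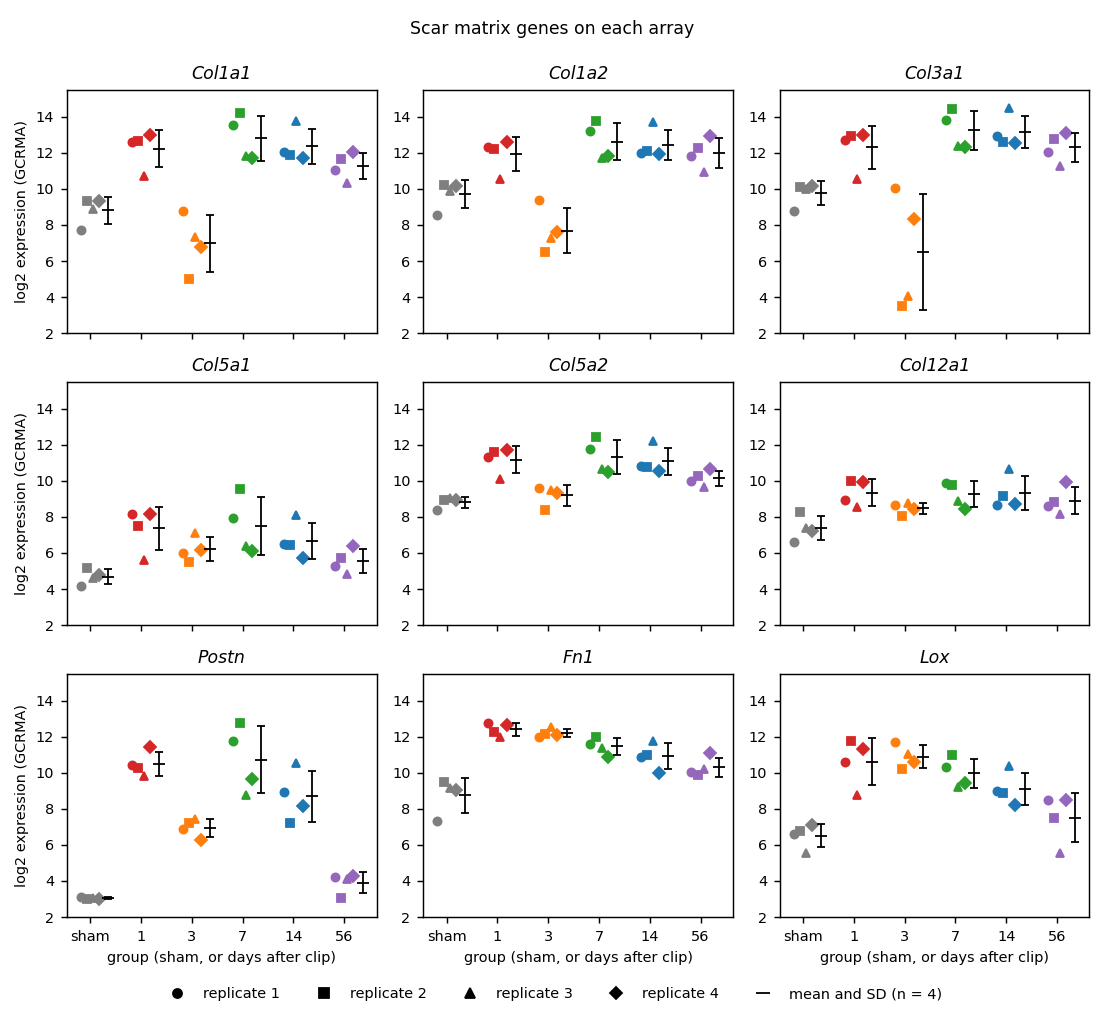
Log2 expression (vertical axis) of each gene on every array by group (horizontal axis, sham or days after the clip), with 1 mark per rat shaped by replicate and the group mean and SD of 4 rats beside it. Day 3 separates from days 1 and 7 in Col1a1, Col1a2 and Col3a1, Postn spans 3.00 to 12.74, and Fn1 and Lox step down from days 1 and 3 to day 56.

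The order of the group means was nearly the same for the 3 chains. For Col1a1 it ran from day 7 through days 14, 1 and 56 to sham and day 3, and among these neighbours only day 56 and sham differed. For Col1a2 days 7, 14, 56 and 1 followed each other without a difference between neighbours, sham lay below day 1 (adjusted p = 0.00794) and day 3 below sham (adjusted p = 0.0197). For Col3a1 the order was that of Col1a2, and only sham and day 3 differed among neighbours (adjusted p = 0.0220).

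Collagen V, which nucleates collagen I fibrils, had a shallower course on the first probe set of each chain. Col5a1 read 4.15, 5.15, 4.63 and 4.76 in sham and 8.15, 7.52, 5.64 and 8.18 on day 1, a rise of 2.70 (SE 0.69, adjusted p = 0.00274). On day 3 it read 6.02, 5.52, 7.11 and 6.17, all above sham, with a difference of 1.53 that did not pass (SE 0.69, adjusted p = 0.0856). On this probe set, unlike the collagen I chains, it thus did not lie under sham on day 3. It stood 2.83 above sham on day 7 (adjusted p = 0.00280) and 2.00 on day 14 (adjusted p = 0.0330), and on day 56 its difference was 0.88 (adjusted p = 0.424). The day 14 call was lost when any of sham replicates 1, 3 and 4 or day 14 replicates 1 and 3 was left out, with differences between 1.53 and 2.07 and adjusted p between 0.0526 and 0.140. Its other probe set gave no call against sham on any day, with a largest difference of 0.47 on day 7 (adjusted p = 0.0923). On day 3 that probe set stood at -0.19 against sham (adjusted p = 0.496). It was called lower on day 3 than on day 1 (-0.62, adjusted p = 0.0457) and higher on day 7 than on day 3 (0.655, adjusted p = 0.0402). The probe sets of Col5a1 thus disagree in size, and on day 3 in direction against sham.

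On its first probe set Col5a2 moved within a narrower range. It read 8.36, 8.92, 9.02 and 8.92 in sham, and it stood 2.37 higher on day 1 (SE 0.45, adjusted p = 0.000181), 2.53 on day 7 (adjusted p = 0.000175) and 2.27 on day 14 (adjusted p = 0.000640). On day 3 it read 9.59, 8.37, 9.47 and 9.33, overlapping sham, a difference of 0.38 (adjusted p = 0.481). Its second probe set gave 1.32 on day 3 and passed (adjusted p = 0.0437). There the rises were larger than on the first, at 3.14 on day 7 (adjusted p = 5.8e-05) and 2.975 on day 14 (adjusted p = 0.000135). On day 56 Col5a2 was 1.34 higher than sham (adjusted p = 0.0293), a call lost without sham replicate 1 (1.19, adjusted p = 0.0865), day 56 replicate 2 (1.30, adjusted p = 0.0622) or day 56 replicate 4 (1.17, adjusted p = 0.0931). In the ordered means of both collagen V chains, from day 7 down to sham, no neighbours differed.

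Col12a1 encodes collagen XII, which binds along fibril surfaces and rises in tissues under tension. It read 6.63, 8.26, 7.36 and 7.22 in sham and 8.95, 9.98, 8.54 and 9.95 on day 1, its highest group, a rise of 1.98 (SE 0.49, adjusted p = 0.00205). It stayed at 1.89 above sham on day 7 (adjusted p = 0.00447) and 1.94 on day 14 (adjusted p = 0.00456), and on day 3 its difference was 1.1 (adjusted p = 0.0790), or 1.41 without sham replicate 2, which passed (adjusted p = 0.0391). On day 56 it was 1.53 higher (adjusted p = 0.0223) with overlapping values, and the call was lost without sham replicate 1 (1.28, adjusted p = 0.0814) or day 56 replicate 4 (1.17, adjusted p = 0.0971). Of its other probe sets, one read 2.12 to 2.23 on all arrays, within or below the level of the unspiked control probe sets, and the other passed on day 7 alone, at 0.63 (adjusted p = 0.0365).

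Postn had the widest range of group means of the 9 genes. Periostin is a secreted protein that is low in most resting adult tissue and is made by activated fibroblasts. In sham it read 3.12, 3.01, 3.04 and 3.00, just above the mean of 27 unspiked control probe sets, which was 2.71 to 2.87 on those arrays, so that the size of a rise from there is not exact. On day 1 it read 10.46, 10.28, 9.80 and 11.42, a difference of 7.44 (SE 0.71, adjusted p = 7.6e-08). On day 7 it read 11.76, 12.74, 8.75 and 9.68, a difference of 7.69 (adjusted p = 1.7e-07), with a wide span between rats. Day 3 lay between, at 6.89, 7.21, 7.44 and 6.29, still 3.91 above sham (adjusted p = 0.000197), 3.53 under day 1 (adjusted p = 0.000788) and 3.78 under day 7 (adjusted p = 0.000449).

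Postn was also the gene with the clearest late fall. On day 14 it read 8.92, 7.19, 10.53 and 8.19, a difference of 5.66 from sham (adjusted p = 7.4e-06), and on day 56 it read 4.22, 3.06, 4.11 and 4.26, a difference of 0.87 that did not pass (adjusted p = 0.449). Fitted on the day 56 and sham arrays alone, the same difference passed (adjusted p = 0.0454), and replicates 1, 3 and 4 of day 56 lay above every sham value. Only 1 of the 9 genes fell between days 14 and 56, against 0.148% of all genes, and 0 rose, against 0.19%. This gene was Postn, which fell by 4.80 (SE 0.71, adjusted p = 0.00233) with no overlap between the groups. Fitted on the day 14 and day 56 arrays alone, the same difference had an adjusted p of 0.10. Between days 7 and 56, 2 of 9 genes fell, against 4.78% of all genes, and 0 rose, against 1.99%. Postn fell by 6.82 there (adjusted p = 1.3e-05), and 11.3% of its day 7 difference was left on day 56.

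The fall of Postn from day 7 to day 14 was less firm. Only 1 of the 9 genes was lower on day 14 than on day 7, and 0 were higher, against 6.18% and 21.8% of all genes. This was again Postn, at -2.03 (SE 0.71, adjusted p = 0.0373) with overlapping values. The call was lost without any of day 7 replicates 1 and 2 and day 14 replicates 1, 2 and 4, with differences between -2.10 and -1.36 and adjusted p between 0.0639 and 0.162, and it was lost with replicate number as a block (-2.03, adjusted p = 0.0575). In the order of its means, day 7, day 1, day 14, day 3, day 56 and sham, the neighbours that differed were days 14 and 3 (adjusted p = 0.0425) and days 3 and 56 (adjusted p = 0.00215).

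All genes were also fitted relative to Col1a1 on the same array, which removes shifts common to an array. Postn was the only gene that passed as lower on day 56 than on day 14, 0.00703% of the genes tested, while 0.0914% passed as higher. The relative difference was -3.70 (SE 0.80, adjusted p = 0.0125), and all 4 day 56 arrays lay below all 4 day 14 arrays (exact permutation test, two-sided p = 0.029, the smallest that 4 against 4 arrays allow). The relative fit gave every gene the same SE, so its SE and adjusted p do not measure the spread of Postn itself. With 1 array left out at a time the relative difference lay between -4.07 and -3.29. The call was lost without day 14 replicate 1 (adjusted p = 0.130), 3 (adjusted p = 0.0616) or 4 (adjusted p = 0.0550) and without day 56 replicate 2 (adjusted p = 0.182). The relative differences of the other 7 genes lay between -0.50 for Lox and 0.68 for Col12a1 and did not pass with the SE that all genes shared. Those of Col1a2 (0.65) and Col3a1 (0.25) were higher on day 56 on all arrays, with the same exact permutation p of 0.029.

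The promoters of Postn and Col1a2 are shown because both genes fell between days 1 and 3, while of these only Postn passed as lower on day 56 than on day 14. Of the 9 genes, 4 had an entry in the RefSeq promoter table (assembly GRCr8), from which the 250 bases before the annotated start are printed 5′ to 3′ on the gene's strand, for Postn chr2:140677811-140678060 and for Col1a2 chr4:33518307-33518556, both on the plus strand. Capitals mark exact matches of TATAAA and CCAAT, searched on both strands.
Postn: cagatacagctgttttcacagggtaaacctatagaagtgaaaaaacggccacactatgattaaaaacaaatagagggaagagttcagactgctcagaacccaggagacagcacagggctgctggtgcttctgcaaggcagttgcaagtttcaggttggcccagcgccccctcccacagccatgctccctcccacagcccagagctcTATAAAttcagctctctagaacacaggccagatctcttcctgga
Col1a2: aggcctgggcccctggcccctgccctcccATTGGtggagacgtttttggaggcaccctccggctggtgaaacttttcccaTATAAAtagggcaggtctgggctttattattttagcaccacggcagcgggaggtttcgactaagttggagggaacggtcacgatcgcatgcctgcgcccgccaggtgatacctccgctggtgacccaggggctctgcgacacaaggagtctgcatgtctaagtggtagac
In Postn the TATAAA match began 44 bases before the annotated start, and in Col1a2 it began 170 bases before it. Col1a2 also held CCAAT on the opposite strand, beginning 221 bases before the start. Of all 33469 promoters in the table, 12.9% held TATAAA and 34.0% held CCAAT in the same window. GGGCGG was matched in Col5a1 (30.5% of all promoters) and CAGACA in Col5a2 (17.2%), and TGANTCA (6.3%) in none of the 4. A match is a string in this window and does not show that a factor binds.

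Fn1, the provisional matrix protein, rose at once and then stepped down. It read 7.35, 9.50, 9.15 and 9.03 in sham, 12.74, 12.28, 11.96 and 12.67 on day 1 and 12.00, 12.18, 12.53 and 12.12 on day 3. Both injured groups lay wholly above sham, by 3.66 (SE 0.41, adjusted p = 5.3e-07) and 3.45 (adjusted p = 1.9e-06). Fn1 did not share the day 3 interruption, with a difference of -0.21 between days 3 and 1 (adjusted p = 0.693). It then stood 2.71 above sham on day 7 (adjusted p = 3.7e-05), 2.16 on day 14 (adjusted p = 0.000456) and 1.54 on day 56 (adjusted p = 0.00696). The means fell in the order of the days. Neighbouring days did not differ, day 56 differed from sham, and from day 1 to day 56 Fn1 fell by 2.11 (adjusted p = 0.000645). The day 56 call had an adjusted p of 0.0577 when only those 8 arrays were fitted.

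Lox, the cross-linking enzyme, had its highest mean on day 3. It read 6.62, 6.78, 5.58 and 7.09 in sham, 10.57, 11.75, 8.79 and 11.30 on day 1 and 11.71, 10.22, 11.02 and 10.61 on day 3. The day 3 values were 4.38 above sham (SE 0.68, adjusted p = 4.0e-05) at a time when the collagen I and III chains it acts on were at or below sham. It stood 3.46 above sham on day 7 (adjusted p = 0.000475), 2.6 on day 14 (adjusted p = 0.00623) and 1.00 on day 56, where 8.49, 7.51, 5.58 and 8.5 overlapped sham (adjusted p = 0.332). Its second probe set, which in sham read 2.23 to 2.49 and thus no higher than the control probe sets, gave larger differences, 6.29 on day 1 and 6.71 on day 3. Between days 7 and 56 Lox fell by 2.45 (adjusted p = 0.0388), or by 4.39 on the second probe set (adjusted p = 0.0103). On the first, the call was lost without day 7 replicate 1, 2 or 4 or day 56 replicate 2 or 3, with differences between -2.64 and -1.80 and adjusted p between 0.0583 and 0.124. No neighbours in the order of its means, day 3, day 1, day 7, day 14, day 56 and sham, differed.

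The day 3 difference from sham was also taken relative to Col1a1 on the same array, a comparison chosen after the values were seen, with a reference that was itself low on day 3. Of the 8 other genes 6 passed as higher relative to Col1a1, against 73.3% of all genes, and 0 as lower, against 0.26%, so that their share was near that of all genes. All genes again shared the same SE in this fit. The relative differences were 6.22 for Lox, 5.76 for Postn, 5.29 for Fn1, 3.38 for Col5a1, 2.96 for Col12a1 and 2.23 for Col5a2, and -0.18 for Col1a2 and -1.43 for Col3a1.

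In several groups 1 rat was highest or lowest for most of the 9 genes. Day 14 replicate 3 was the highest of its group in 9 of 9 genes, day 56 replicate 4 in 9 of 9 and day 7 replicate 2 in 8 of 9. Day 1 replicate 3 was the lowest in 9 of 9, sham replicate 1 in 7 of 9 and day 3 replicate 2, day 14 replicate 4 and day 56 replicate 3 in 7 of 9 each. Other positions were divided: on day 3 replicate 1 was highest in 5 genes and replicate 3 in 4, sham replicate 2 was highest in 5, day 1 replicate 4 in 6, and on day 7 replicate 4 was lowest in 6 and replicate 3 in 3. The median deviation of the 9 genes from their group means was -1.39 on day 1 replicate 3, 1.14 on day 7 replicate 2 and 1.34 on day 14 replicate 3. Day 7 was divided, with replicates 1 and 2 above the group mean and replicates 3 and 4 below it in all 9 genes. Over the 24 arrays, which share RNA, labelling and scan within each array, the deviations of any pair of genes correlated with r between 0.239 and 0.965 (36 pairs, median 0.722).

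**Figure D3:**
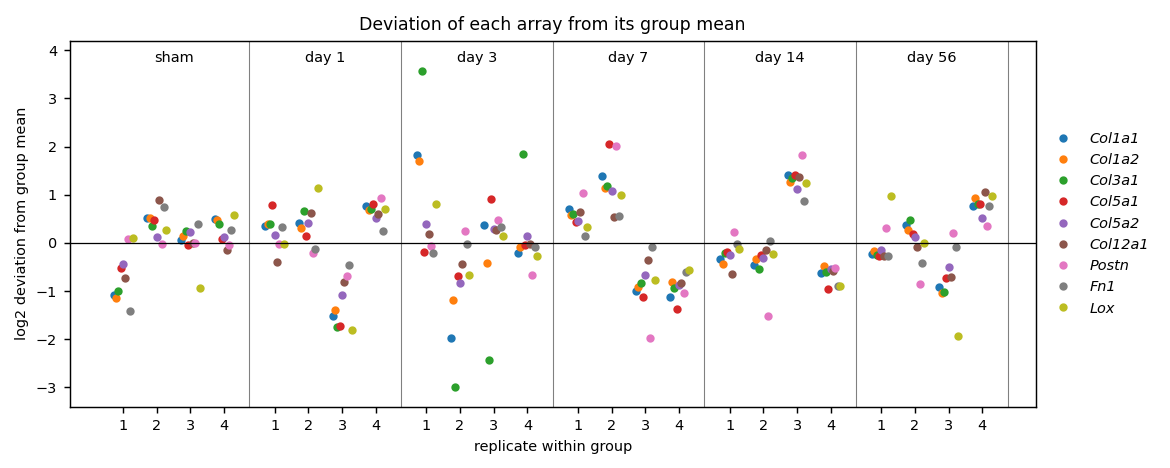
Deviation of each gene from its group mean (vertical axis, log2) on each of the 24 arrays (horizontal axis, replicate within group), with 1 coloured dot per gene. All 9 dots lie below 0 on day 1 replicate 3 and above 0 on day 14 replicate 3, and on day 3 Col3a1 ranges from 3.57 to -3.0.

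The summed fibroblast markers followed the order of the rats in some groups and not in others. The summed level of 14 fibroblast markers was 14.54 and 14.68 on day 7 replicates 1 and 2 and 13.42 and 13.11 on replicates 3 and 4, and on day 14 it was 14.87 on replicate 3 and 13.31 to 13.58 on the other arrays. On day 3, however, replicate 3 had the second highest summed level of the scar genes (13.25) and the lowest of the fibroblast markers (11.71). Such sums are weighted to the genes with the highest readings, and on that array Fn1 read 12.53, Lox 11.02 and Col3a1 4.05. The fibroblast markers Dcn and Lum read 4.46 and 2.53 there, so that other markers made up its fibroblast sum. Both were lowest on day 3 replicate 2 (3.35 and 2.48), the array with the lowest summed scar level of day 3 (12.72). Sham replicate 1, lowest for the scar genes (10.77), had a summed fibroblast level like that of the other sham arrays (13.24 against 13.23 to 13.43). The marker Lum was lowest on this array (7.55 against 7.96 to 8.46), while Dcn was not. Of the 14 markers, 4 were higher and 1 lower than sham on day 1, 0 and 4 on day 3, 4 and 2 on day 7, 3 and 1 on day 14, and 4 and 1 on day 56. Of the 2 lower on day 7, 1 was at the level of the control probe sets (-0.05). Over all genes 28.9%, 23.7%, 23.5%, 15.8% and 16.1% were higher on the 5 days in turn. Lower were 20.4%, 16.7%, 30%, 16.3% and 15.9%. The same shares apply to the counts of all lists that follow, and a count near them is no result about its list. Dcn (decorin), a small proteoglycan that decorates collagen fibrils, read 10.47, 10.65, 10.43 and 10.93 in sham and 10.78, 3.35, 4.46 and 6.42 on day 3. This is the order of the rats seen for Col3a1. Lum (lumican), of the same family, was 4.54 lower than sham on day 3 and 3.51 higher on day 7, while Thy1, which neurons express as well, was 3.41 lower on day 1. Pi16, a marker of fibroblasts around vessels, was 3.28 higher on day 1. Twist2 and Tcf21 stayed at the level of control probe sets in all groups. The part of fibroblast number in the results was not tested.

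Markers of other cell types of the scar and the surgical field were counted in the same way. Of 12 macrophage and microglia markers 11 were higher than sham on days 1, 7 and 14, 10 on day 56 and 6 on day 3, when 2 were lower. Their summed level was 12.29 to 13.61 in sham, 15.90 to 16.14 on day 1, 14.11 to 14.49 on day 3 and 15.36 to 16.61 over days 7, 14 and 56. Cd68, a lysosomal protein of macrophages, was 9.0 higher on day 1, Mrc1 6.73 and Ptprc 3.6, and C1qb was 3.68 higher on day 7. Of 9 measured meningeal markers 2 were lower and 1 higher on day 1, 5 were lower on day 3 and 2 on day 7, and 2 were higher on day 56. Among the lower ones, 1 on day 3 (-0.1) and 1 on day 7 (-0.09) were at the level of the control probe sets. On day 3 Slc6a13 (-3.13) and Aldh1a2 (-3.01) led, and on day 1 Crabp2 was 2.58 higher and Ptgds 2.43 lower. The summed meningeal level was 14.59 to 15.43 in sham, 12.35 to 14.28 on day 1, 13.10 to 14.32 on day 3 and 15.31 to 15.95 on day 56. The sum is weighted to the genes with the highest readings. The median difference of the 9 markers from sham was -0.02 on day 1 and -1.14 on day 3. Of 13 pericyte and smooth muscle markers, 5 were higher on day 1, 2 on day 3, 4 on days 7 and 56 and 3 on day 14, and 1 was lower on days 1, 14 and 56 and 3 on days 3 and 7. Of the 3 lower on day 7, 1 was at the level of the control probe sets (-0.04). Anpep, which macrophages express too, was 6.33 higher on day 1 and Tagln, of smooth muscle, 2.99, and Rgs5, a pericyte marker, was 2.61 lower on day 3. Of 8 Schwann cell markers 3 were higher on days 1, 3 and 7, 5 on day 14 and 4 on day 56, and 1 was lower on days 3 and 56. Egr2 was 3.79 higher on day 1, Pmp2 2.20 on day 14, and Scn7a and Prx 3.04 and 1.58 on day 56. The part of these cell types in the results was not tested.

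Markers of muscle and bone were measured as well. On day 7 replicates 1 and 3 and day 14 replicate 4 the muscle genes Acta1 and Myl1 read 7.19 to 9.79, while on every other array they read at most 4.75. Of 12 muscle markers, 1 was higher on day 7 and 0 on the other days, and 2 were lower on days 1, 7, 14 and 56. Tnni2 was 1.03 higher on day 7, Tnnc2 and Myh1 were 2.55 and 1.17 lower on day 1, and Myh2 was 0.16 lower on day 7, at the level of the control probe sets. Day 7 replicate 1 was above its group mean in 9 of 9 scar genes, and day 7 replicate 3 and day 14 replicate 4 were above it in 0 of 9. Without these 3 arrays, an alternative chosen after the values were seen, 8 of 9 genes were higher on day 7, Col3a1 being lost (3.61, adjusted p = 0.0588), and 9 of 9 on day 14. Without day 7 replicates 2 and 3 and day 14 replicate 3 Col3a1 was lost on day 7 (3.31, adjusted p = 0.0679) and, with Col5a1, on day 14 (2.95 and 1.53, adjusted p = 0.0896 and 0.0673). Of 10 bone and cartilage markers, 9 stayed at or below the level of the control probe sets in every group, and Bglap, the osteoblast marker, had group means of 1.86 to 1.94. The 5 of them that were lower on day 7, among them Phex (-0.14), Ibsp (-0.13) and Matn1 (-0.07), and Acan, lower on day 3 (-0.09), were all at the control level. The part of muscle and bone in the results was not tested.

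**Figure D4:**
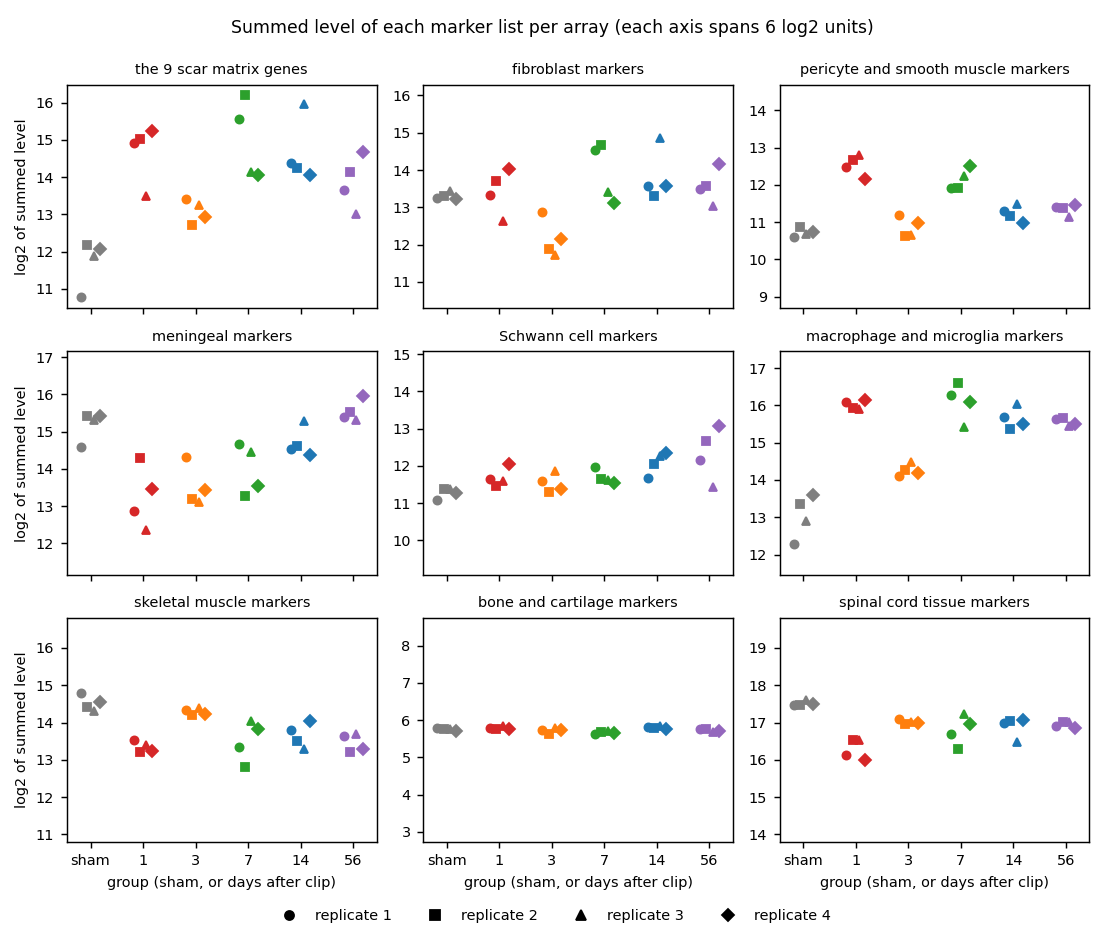
Log2 of the summed linear levels of each list (vertical axes, each spanning 6 log2 units) on every array by group (horizontal axis), with marks shaped by replicate. The 9 scar matrix genes lie at 10.77 to 12.17 in sham and at 12.72 to 16.19 after injury, bone and cartilage markers stay at 5.64 to 5.83, and fibroblast markers reach their lowest value, 11.71, on day 3.

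Some other collagens rose with injury, and many were not above background. Of 23 other fibrillar, fibril-associated and network-forming collagens, 10 stayed at or below the control level in every group, and 7 rose on day 1, 3 on day 3, 8 on days 7 and 14 and 6 on day 56, with a median difference between -0.06 and 0.10. Over all genes 28.9% rose on day 1, 23.7% on day 3, 23.5% on day 7, 15.8% on day 14 and 16.1% on day 56. The subunits of collagen VI, which forms beaded filaments around cells, led the list: Col6a3 rose by 5.04 on day 1 and was still 3.62 higher on day 3, and Col6a1 rose by 3.80 on day 7. Col8a1, a short-chain collagen of vessel walls, rose by 4.58 on day 1. Its partner chain Col8a2 was 4.58 lower on day 3 than in sham. Of the 5 collagens of this list that were lower on day 7, 4 differed by only -0.12 to -0.07 from sham. Lower were 2 on day 1, 4 on day 3 and 1 on days 14 and 56. Among 7 measured basement membrane collagens, 4 rose on day 1, 2 on days 3 and 56 and 3 on days 7 and 14, and 1 was lower on days 3 and 7 (on day 7 by -0.05, at the control level), with medians of 2.40, -0.04, 1.67, 1.28 and 0.39 over the 5 days. Col4a1 and Col4a2, the common collagen IV pair of vessels, were still 3.38 and 2.40 higher on day 3, whereas Col4a5, a chain of specialised basement membranes, was 2.87 lower. Col15a1 rose by 3.14 on day 1 and read -0.92 on day 3 without passing (adjusted p = 0.25).

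**Figure D5:**
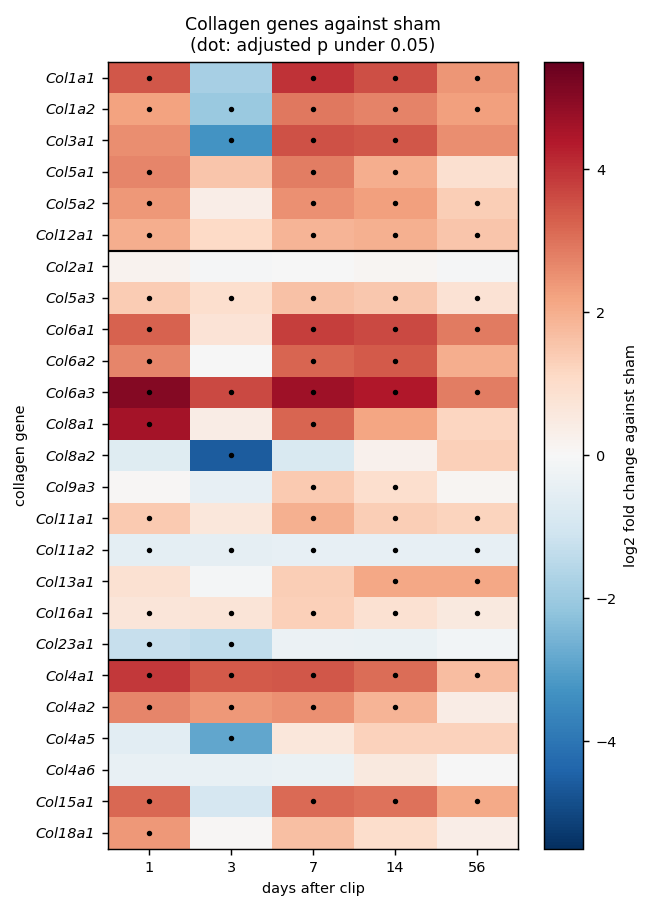
Log2 difference from sham (colour, red higher and blue lower) of each collagen gene (vertical axis) on each day after the clip (horizontal axis), with a dot where the adjusted p is under 0.05. Collagens shown are the 6 scar collagens, then other and basement membrane collagens that rose above the control level in some group, and Col3a1, Col8a2 and Col4a5 are the deepest blue on day 3.

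Enzymes that make collagen secretable rose with little opposite movement. Of 19 measured genes for procollagen modification, secretion and trimming, 13 rose on days 1 and 7, 10 on day 14, 9 on day 56 and 8 on day 3, when 1 was lower. Their median difference was 1.27 on day 1, 0.32 on day 3 and 1.00 on day 7. Pcolce, which enhances removal of the C-terminal propeptide, rose by 3.90 on day 7. Colgalt1 and Fkbp10, a hydroxylysine galactosyltransferase and a collagen chaperone, rose by 2.21 and 2.14 on day 1. P4ha3, a subunit of prolyl hydroxylase, rose by 3.32 on day 3 and by 1.65 on day 1, and at later days it was at the control level. Of 5 cross-linking enzymes other than Lox, 3 rose on days 1, 7 and 14 and 2 on days 3 and 56, and 0 were lower. Loxl2 rose by 4.68 on day 1 and was 2.71 higher on day 56, Loxl1 rose by 3.10 on day 1, and Tgm2, a transglutaminase that binds fibronectin, by 3.19.

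Proteins that sit on fibrils varied more. Of 21 measured glycoproteins, 7 were higher on day 1, 5 on day 3, 9 on days 7 and 14 and 5 on day 56, while 1 was lower on day 1, 4 on day 3 and 2 on day 7. The 2 on day 7, Fbln5 and Comp, named after their values were seen, were at the control level and differed by -0.06 and -0.08. The median difference of the list was 0.14, -0.04, 0.64, 0.54 and 0.49 over the 5 days. Thbs2, which governs fibril assembly, was 5.52 higher on day 3, and Fbn1, the main microfibril protein, 4.53 higher on day 1. Mfap4 was 4.03 higher on day 7. Vtn (vitronectin), which pericytes express, was 4.89 lower on day 1.

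Receptors, inducers and breakdown enzymes were measured alongside. Of 13 receptors, 6 were higher on day 1, 4 on days 3, 7 and 14 and 6 on day 56, and 2 were lower on days 3 and 7, with medians between -0.05 and 0.36. Of the 2 lower on day 7, 1 was at the control level (-0.06). Cd44 stood at 2.95 on day 3, Itga1, a collagen-binding integrin chain, at 2.38 on day 1, and Ddr2, which binds fibrillar collagen, at 1.65 on day 56. Itgb5 was 1.54 lower on day 3. Of 12 inducers and their receptors, 5 were higher on day 1, 4 on day 3, 3 on day 7 and 2 on days 14 and 56, and 2 were lower on days 3, 7 and 56, with medians between -0.07 and 0.11. The 2 lower on day 7 were at the control level in both groups and differed by -0.06 and -0.05. Tgfb1 and Tgfb3 rose by 3.61 and 3.56 on day 1, the receptor Tgfbr1 by 1.94, and Inhba by 2.30 on day 3. On day 3 Tgfb1 was still 1.25 higher, while Tgfbr1 was 1.05 lower than sham. Of 17 genes for collagen breakdown, 9 rose on days 1 and 7, 3 on day 3, 7 on day 14 and 8 on day 56, and up to 3 were lower, with medians between -0.04 and 0.81. Of the 3 lower on day 7, 2 were at the control level (-0.11 and -0.06). Plau, the urokinase gene, rose by 7.23 on day 1 and the inhibitor Timp1 by 4.69 on day 3. Mmp2, a gelatinase of fibroblasts, rose by 5.27 on day 7, after 4.52 on day 1, and read -0.61 on day 3 (adjusted p = 0.199). Ctsk, a collagen-degrading cathepsin, was highest on day 56, at 5.38 above sham, when Postn was back near its sham level.

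The genes whose pattern over the 24 arrays was most like the mean of the 9 standardised scar genes were Loxl2 (Pearson r = 0.969), Eva1b (0.946), Fbn1 (0.943), Mgp (0.937), Svil (0.935), Cald1 (0.928), Lima1 (0.927), Gpx7 (0.926), Poglut3 (0.924) and Col6a1 (0.924). The correlation describes arrays that share their groups, and 23 of 14209 other genes reached 0.9. Over the 20 injured arrays alone, 4 of these 10 genes stayed in the top 10, and Loxl2 was again first (r = 0.960).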

How the data were processed

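Total RNA of 24 samples was hybridised to 1 Affymetrix array each. The deposited values are on a log2 scale, made by the authors with affy 1.12.2 and GCRMA, as the submitters' processing notes name them. By the study's methods, pre-processing was run per time point, so that a shift from this step and a change with the day cannot be told apart. Array medians lay between 4.29 and 4.45, and the array means of 27 unspiked control probe sets between 2.62 and 2.91. Of 31099 probe sets, 20832 had 1 gene symbol, 436 several and 9831 none, and those with several or none were fitted but not named. The 5 injured groups and sham, 4 rats each, entered a single limma fit over all probe sets (limma 3.58.1, statmod 1.5.0, R 4.3.3) (residual degrees of freedom 18, prior 1.08), with moderated tests, Benjamini-Hochberg adjustment per comparison over the probe sets with 1 symbol and a threshold of 0.05. Standard errors are those of this fit. The p-values measure the spread between these rats, and the number of arrays limits the precision. The relative fit subtracted Col1a1 of the same array from every probe set. Its prior degrees of freedom were infinite, so all genes shared an SE of 0.80. Its adjusted p-values therefore do not measure the spread of a single gene. Tables and plots were made with matplotlib 3.10.9, scipy 1.17.1, pandas 2.3.3 and numpy 2.4.6 under Python 3.11.15.

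The 9 genes are all named. From each other list up to 4 genes with the largest change among those that passed on any day were named, and defining markers at the control level. Members, lists and rules were chosen with earlier results of these data known. Alternatives were fits of only the groups compared, a trend with robust variance, quantile normalization, median centring, no dim probe sets (both group means under 5), all probe sets of a gene averaged, the methods' t-test, replicate number as a block, each array left out, and day 7 replicates 2 and 3 with day 14 replicate 3 left out together. Leaving out the 3 arrays with muscle genes and the day 3 comparison within arrays were added after values were seen. The scripts were tested on simulated data. Promoters came from a RefSeq table and protein sequences were not used here.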

Additional observations from a re-analysis of the deposited data

Results flagged for a closer look

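In 54 groups of 4 arrays (9 genes in 6 groups) the gap between the most extreme array and its neighbour was set against the range of the group (Dixon's test at 95%), which chance exceeds in about 1 of 20 groups. It was exceeded by day 14 replicate 3 for Col1a1 (13.77) and Col1a2 (13.69), by sham replicate 1 for Col3a1 (8.76) and Col5a2 (8.36), by day 1 replicate 3 for Col3a1 (10.55) and by day 56 replicate 2 for Postn (3.06).

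The effect of injury against sham also differed between days by the test of the difference itself. From day 1 to day 3 the differences were -5.26 for Col1a1, -4.25 for Col1a2, -5.82 for Col3a1, -1.98 for Col5a2 and -3.53 for Postn, while from day 3 to day 7 they were 5.83, 4.92, 6.76, 2.15 and 3.78 for the same genes in this order. The second probe set of Col5a2 did not pass from day 1 to day 3 (-1.05, adjusted p = 0.105). Later differences were found for Postn, at -2.03 from day 7 to day 14, -4.80 from day 14 to day 56 and -6.82 from day 7 to day 56, and for Lox, at -2.45 over the last of these spans.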

How the results depend on the processing

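Among the changes of the 9 genes, 949 values under the alternatives other than leaving out an array kept their direction and their side of the threshold, 21 gained and 19 lost the call, and with 1 array left out 687 kept it, 4 gained and 29 lost it. No direction of a called value reversed. The number of the 9 genes higher than sham on day 3 was 3, and 5 with only the compared groups fitted or by the methods' t-test without adjustment. The number lower on day 3 was 2, 0 with only the compared groups, and 3, with Col1a1 added, under trend and robust variance, quantile normalization, no dim probe sets, the unadjusted t-test or day 7 replicates 2 and 3 with day 14 replicate 3 left out. The single fall from day 7 to day 14 (Postn) was 0 with only the compared groups, with quantile normalization, median centring or no dim probe sets, and without the 3 arrays with muscle genes (Postn -2.33, adjusted p = 0.0678). The fall from day 14 to day 56 was 0 with only the compared groups and 2 by the unadjusted t-test, and falls from day 7 to day 56 were 1 with only the compared groups, quantile normalization or either set of 3 arrays left out, and 5 by the unadjusted t-test. With 1 array left out, the counts ranged from 8 to 9 higher on day 1, 3 to 4 higher and 0 to 3 lower on day 3, 7 to 9 higher on day 14, 2 to 5 higher on day 56 (2 without sham replicate 1 or day 56 replicate 4), 0 to 1 lower from day 7 to 14 and 1 to 2 from day 7 to 56, and the Postn difference relative to Col1a1 from -4.07 to -3.29. Deviations of arrays with the same replicate number correlated with r from -0.657 to 0.452 (60 pairs, median 0.004, 12 over 0.1). With different numbers r ran from -0.523 to 0.591 (180 pairs, median -0.004, 42 over 0.1). The main fit therefore did not pair rats by number, although these values cannot exclude a link between some arrays. With replicate number as a block, the count of genes lower on day 14 than on day 7 was 0. Causes of these changes were not tested.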
